A study of Arabidopsis thaliana with 7 samples.

Results

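The genes described here are those whose signal was lower after the bacterial pathogen Pst-DC3000 than after mock treatment, whichever plant genotype was infected. Of 22746 non-control probe sets on the array, 76 qualified, or 0.334%. A probe set qualified when, with signals below 22 set to 22, its signal on the Col-0 MgCl2 array was at least 2-fold that on every one of 5 Pst-DC3000 arrays: Col-0, wrky18, wrky40, wrky53 and the WRKY18/40 double knockout. The same values that chose the members are therefore given as a description, with no test, and a ratio against a signal below 22 is written as at least that fold. The Pst-DC3000 array of the WRKY60 knockout took no part in the choice.

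The study hybridised total RNA from the whole rosettes of Arabidopsis thaliana plants to 7 one-colour arrays, 1 array per group. All plants were 14 days old and grew at 70% humidity in soil treated with the insecticide imidacloprid, with 10 hours of light at 22 degrees and 14 hours of darkness at 19 degrees. Wild-type Col-0 was sampled after MgCl2 and after Pst-DC3000, while T-DNA knockouts of WRKY18, WRKY40, WRKY60 and WRKY53 and the WRKY18/40 T-DNA double knockout were sampled after Pst-DC3000. No MgCl2 array of a mutant was analysed here, so each mutant is set against the wild-type mock array and the effects of genotype and infection cannot be told apart. The number of plants per array, the alleles used and the time from treatment to harvest are not given in the sources used here. With 1 array a group there is no replicate error, no difference was tested, and a lower signal on a bulk RNA array cannot be separated into fewer cells of a type and less RNA per cell. The wrky60 array stood apart from the rest before any member is considered: its 40th percentile of signal was 31.3 against 20.1 to 21.6 on the other arrays, and the median spike-in control, of 29 added as bacterial RNA, was 7.30-fold brighter on it than elsewhere.

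Plants recognise bacteria in 2 layers. Receptor kinases at the cell surface bind conserved microbial molecules and start pattern-triggered immunity through cytoplasmic kinases, calcium influx and WRKY transcription factors, and intracellular receptors of the NLR class respond to proteins that bacteria inject into the cell. Pst-DC3000 is a strain of Pseudomonas syringae that injects such effector proteins and makes coronatine, a mimic of active jasmonate, and both are known to dampen surface immunity and the salicylic acid response. WRKY18, WRKY40 and WRKY60 form the group II-A of the WRKY family, and WRKY53 is known as a regulator of leaf senescence and of defence.

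The array annotation gave 1 gene for 34 of the 76 probe sets, a pair of genes for 2 and no gene for 40. Of the 34 genes, 7 carry a symbol in the gene table and 27 are given by locus code. Among the named ones are 3 WRKY factors, several kinases and other surface proteins, an NLR gene and the NLR co-chaperone SGT1A, and genes of the cell wall. The berberine bridge enzyme family is there with 1 gene and 1 gene pair that shares a probe set. The genes lay on all 5 nuclear chromosomes, with 13 on chromosome 1, 2 on chromosome 2, 6 each on chromosomes 3 and 4, and 7 on chromosome 5. The members with no gene had a median signal of 189 on the MgCl2 array and those with a gene 324, and their median folds lower after Pst were 2.91 and 2.63.

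Member signals on the MgCl2 array ran from 47.5 to 1797 with a median of 219.9, which lay above 86.0% of all probe sets. A member needed a mock signal of at least 44 to qualify, and 10559 probe sets met that condition, so 0.720% of those that could have qualified did. The median member was 2.62-fold lower on the Col-0 Pst array, 2.72-fold on wrky18, 2.84-fold on wrky40, 4.20-fold on wrky53 and 2.48-fold on the double knockout. Over all probe sets, 1.22% were at least 2-fold below mock on the Col-0 Pst array, 1.57% on wrky18, 1.42% on wrky40, 2.60% on wrky53 and 0.967% on the double knockout. The rule fixes these directions, and the folds only show how deep the decrease was on each array. In 24 members at least 1 of the 5 Pst signals lay below 22, so part of their folds are lower bounds, and 1 member lay below 22 on all 5. Such signals were uneven across arrays: 22 members on wrky53, 10 on Col-0, 9 on wrky18, 7 on the double knockout and 4 on wrky40.

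**Figure D1:**
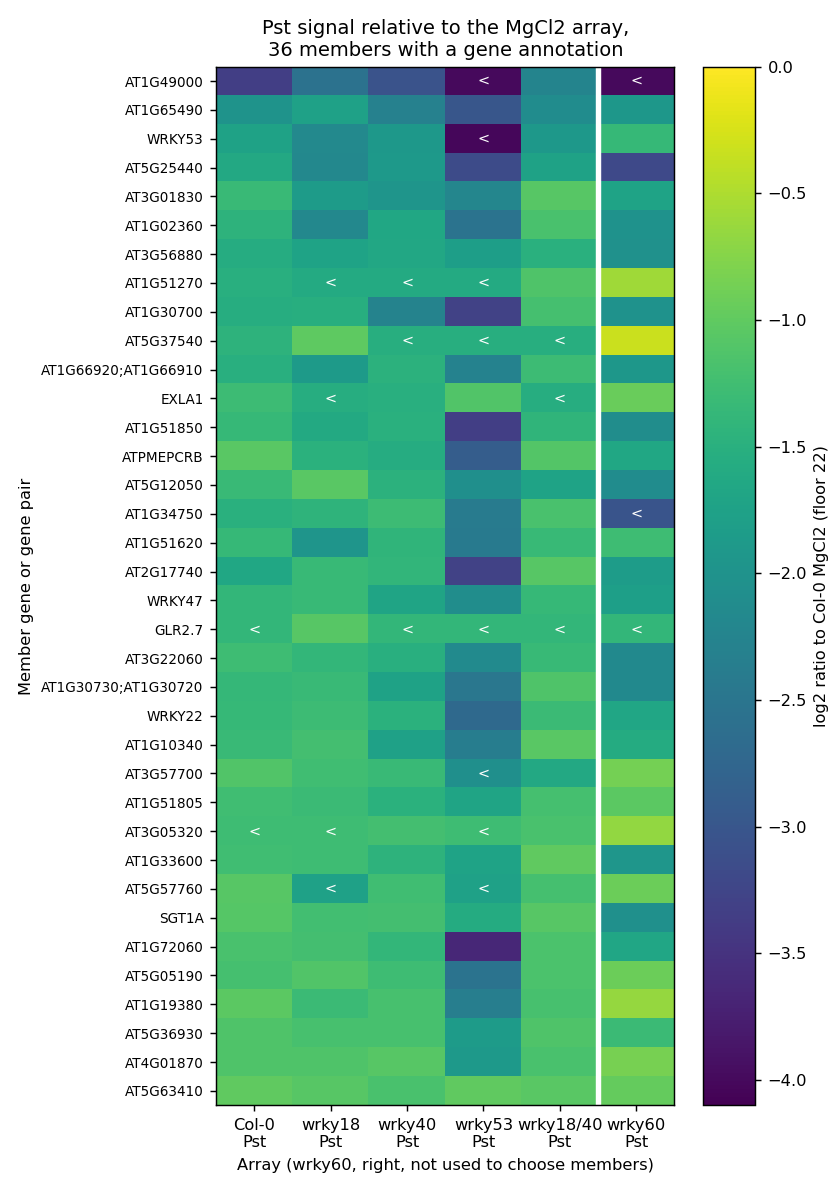
Colour gives the log2 ratio of each Pst array to the Col-0 MgCl2 array for the 34 members with 1 gene and the 2 gene pairs, ordered by their median over the 5 arrays that chose them. The sign < marks a signal below 22, where the ratio is a bound, and the wrky60 column, to the right of the white line, took no part in the choice. Dark cells gather in the wrky53 column, where the median over all 76 members was 4.20-fold lower.

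Transcription factors of the WRKY family come first because the mutants are WRKY mutants. WRKY53 had a signal of 358 on the MgCl2 array, 107 on Col-0 Pst, 79.3 on wrky18, 94.6 on wrky40, 95.5 on the double knockout, 141 on wrky60 and 3.07 on wrky53. Its signal is low on all Pst arrays, and lowest, below the floor, on the array of the knockout in WRKY53 itself, which leaves 4 genotypes that bear on its membership. WRKY22, a WRKY factor that acts downstream of the flagellin receptor, had 370.4 on the MgCl2 array, 146 on Col-0 Pst, 152 on wrky18, 133 on wrky40, 57.3 on wrky53, 149.7 on the double knockout and 116 on wrky60. WRKY47 had 306 on the MgCl2 array, 117 on Col-0 Pst, 121 on wrky18, 94.1 on wrky40, 72.0 on wrky53, 119.8 on the double knockout and 89.1 on wrky60. For both genes the mock array stood above every Pst array, the wrky53 array was lowest, and the Col-0, wrky18 and double knockout arrays were close to one another. WRKY22 was 2.54-fold lower on Col-0 Pst than on mock and 6.46-fold lower on wrky53, and WRKY47 2.62-fold and 4.25-fold.

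The 3 other WRKY genes measured here were not members. The gene table lists 67 WRKY symbols, of which 7 had a probe set with 1 named gene here, 6 had a mean signal of at least 22, and 3 were members. WRKY6 had log2 ratios to mock of -0.78 on Col-0 Pst, -1.56 on wrky53 and 0.34 on the double knockout. WRKY20 had -0.04, 0.04 and -0.25 on the same arrays, and ZAP1, also a WRKY gene, 0.24, 0.33 and 0.20. The median over the 6 was -1.06 on Col-0 Pst, beside 0.001 over all 13674 probe sets with a mean signal of at least 22, and 3 of the 6 are genes that the rule picked.

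Receptor kinases, other kinases and related surface proteins are taken next, from general knowledge of these loci and with no count over all probe sets. AT1G51850, a leucine-rich repeat receptor kinase gene, had 748 on the MgCl2 array, 293 on Col-0 Pst, 245 on wrky18, 266 on wrky40, 73.8 on wrky53, 280.0 on the double knockout and 177 on wrky60. It was 2.56-fold lower on Col-0 Pst and 10.1-fold lower on wrky53 than on mock, and the wrky53 signal stood well below all the others. AT1G51805, a gene of the same kinase family separated from it by 5 protein-coding genes, had 383 on mock and 117 to 166 on the 5 Pst arrays, with 187 on wrky60. The kinase gene AT1G51620, with 18 protein-coding genes between it and AT1G51805, had 153 on mock, 28.7 to 60.2 on the 5 Pst arrays and 63.0 on wrky60. The rule itself required all 3 to be low on the same 5 arrays. AT5G63410, another leucine-rich repeat kinase gene, had 178 on mock and 78.7 to 89.0 on the 5 Pst arrays, the narrowest spread among the kinase genes named here, with 91.5 on wrky60. It was the member with the smallest median decrease, 2.07-fold.

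AT5G25440, a kinase gene of the receptor-like cytoplasmic kind, had 323 on the MgCl2 array, 105 on Col-0 Pst, 70.6 on wrky18, 86.5 on wrky40, 36.1 on wrky53, 96.3 on the double knockout and 35.4 on wrky60. Its lowest signals were those on the wrky53 and wrky60 arrays, 8.93-fold and 9.11-fold below mock. AT3G57700, a protein kinase gene, had 91.3 on mock and 20.1 to 42.1 on the 5 Pst arrays, with 50.5 on wrky60, less than 2-fold below mock. One probe set matched the adjacent kinase genes AT1G66920 and AT1G66910, so its signal cannot be assigned to either. It had 219 on mock and 44.8 to 89.6 on the 5 Pst arrays, with 57.7 on wrky60. AT3G22060, a gene for a secreted relative of cysteine-rich receptor kinases, had one of the higher mock signals, 1267, with 288 to 525 on the 5 Pst arrays and 286 on wrky60. The leucine-rich repeat gene AT1G33600 had 383 on mock and 116 to 191 on the 5 Pst arrays, with 99.6 on wrky60. AT1G34750, a protein phosphatase gene of the 2C class that removes phosphate groups from proteins, had 180.5 on mock, 34.4 to 79.9 on the 5 Pst arrays and 19.4, below the floor, on wrky60.

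Genes linked to calcium and to intracellular immune receptors were fewer. AT3G01830, an EF-hand calcium-binding protein gene, had 206 on the MgCl2 array, 82.2 on Col-0 Pst, 57.5 on wrky18, 53.2 on wrky40, 44.1 on wrky53, 99.0 on the double knockout and 62.5 on wrky60. Its median decrease over the 5 arrays was 3.59-fold. GLR2.7, a gene of the glutamate receptor-like channels that pass calcium, had 57.6 on mock and 27.5 on wrky18, and between 2.67 and 20.2, all below the floor, on the other Pst arrays including wrky60. Among the 8 probe sets of this family in the annotation, 3 had a mean signal of at least 22, none of which was a member, and GLR2.7 itself lay below that mean. SGT1A, a co-chaperone that helps NLR receptors fold, had 326 on the MgCl2 array, 153 on Col-0 Pst, 138 on wrky18, 139 on wrky40, 109 on wrky53, 156 on the double knockout and 79.5 on wrky60. Among the 5 arrays that chose it, SGT1A was lowest on wrky53, and its lowest value of all was on wrky60, 4.10-fold below mock. AT5G36930, a gene of the TIR class of NLR receptors, had 81.3 on mock, 22.7 to 37.1 on the 5 Pst arrays and 33.1 on wrky60.

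**Figure D2:**
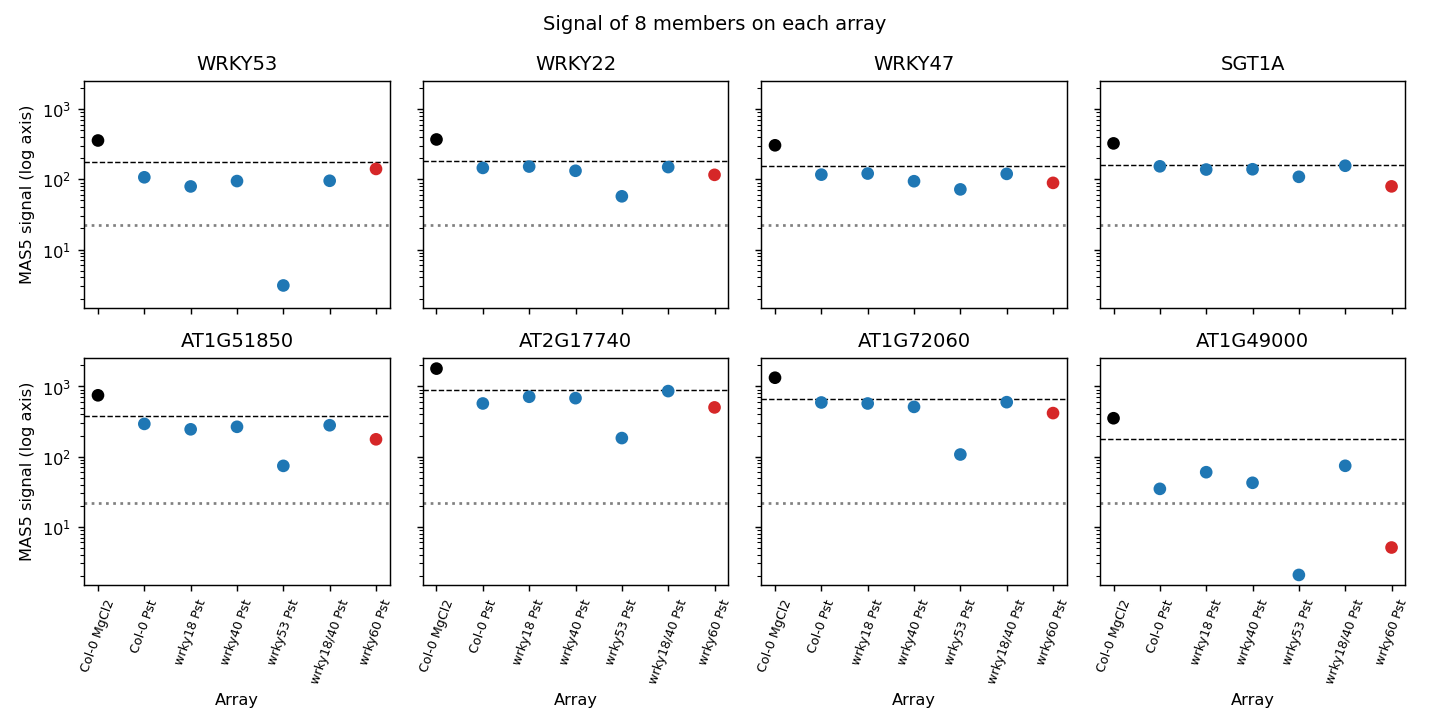
Signal on a log axis for 8 members, with the Col-0 MgCl2 array in black, the 5 Pst arrays of the rule in blue and the wrky60 Pst array in red. The dashed line is the limit of the rule, 0.5 of the mock signal, and the dotted line the floor of 22. WRKY22, AT1G51850, AT2G17740 and AT1G72060 each have 1 low blue point, at 57.3, 73.8, 184 and 107 on the wrky53 array. For SGT1A the wrky53 point, at 109, is also the lowest blue one but lies closer to the others.

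Enzymes and cell wall genes formed another group. AT1G30700, a gene of the berberine bridge enzyme family, flavin-dependent oxidases of which some act in defence metabolism, had 353 on the MgCl2 array, 120.4 on Col-0 Pst, 122 on wrky18, 73.3 on wrky40, 36.1 on wrky53, 152 on the double knockout and 87.2 on wrky60. Its close neighbours AT1G30720 and AT1G30730, of the same family and with no gene between them, share a probe set that had 1220.1 on mock, 219 to 558 on the 5 Pst arrays and 275 on wrky60. That signal cannot be assigned to either gene. Over the 5 arrays of the rule both probe sets ran in the same order, lowest on wrky53, then wrky40, and highest on the double knockout, though sequences of such related genes can cross-hybridise. ATPMEPCRB, a pectin methylesterase that modifies cell wall pectin, had 434 on mock, 209.99 on Col-0 Pst, 155 on wrky18, 146 on wrky40, 58.8 on wrky53, 203 on the double knockout and 137 on wrky60. The wrky53 array stood apart for it too, 7.38-fold below mock against 2.07-fold on Col-0 Pst. The expansin-like gene EXLA1, of a family related to proteins that loosen cell walls, had 64.5 on mock, 17.2 to 29.8 on the 5 Pst arrays and 33.7 on wrky60. EXLA1 was the single member of the 76 with its highest Pst signal, among the 5, on wrky53.

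AT1G02360, a chitinase family gene whose class of enzymes cuts chitin, had 133 on mock, 22.8 to 58.9 on the 5 Pst arrays and 32.9 on wrky60. AT5G37540, an aspartyl protease gene, had 63.8 on mock and 13.3 to 31.4 on the 5 Pst arrays, but 50.5 on wrky60. AT1G72060, a serine protease inhibitor gene, had 1333 on the MgCl2 array, 591 on Col-0 Pst, 572 on wrky18, 512 on wrky40, 107 on wrky53, 597 on the double knockout and 417 on wrky60. The 4 other arrays of the rule lay close together for AT1G72060, and the wrky53 array was 12.4-fold below mock where Col-0 Pst was 2.25-fold below. AT2G17740, a gene with cysteine- and histidine-rich C1 domains, had the highest mock signal of the members, 1797, with 572 on Col-0 Pst, 713 on wrky18, 682 on wrky40, 184 on wrky53, 859 on the double knockout and 503 on wrky60. It was lowest on wrky53, 9.77-fold below mock, and highest on the double knockout.

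AT1G49000 and AT1G65490 had the 2 largest median decreases among the named members, and no role is given for them here. AT1G49000 had 353 on the MgCl2 array, 34.7 on Col-0 Pst, 60.0 on wrky18, 42.4 on wrky40, 2.06 on wrky53, 74.0 on the double knockout and 5.06 on wrky60. It was 10.2-fold lower on Col-0 Pst and at least 16.0-fold lower on wrky53 and on wrky60. AT1G65490 had 253 on mock and 31.5 to 75.2 on the 5 Pst arrays, with 66.1 on wrky60 and a median decrease of 4.29-fold. Between them in this order lay the probe set 254869_at, which has no gene in the annotation. Its signals were 438 on mock, 87.3 on Col-0 Pst, 61.7 on wrky18, 129 on wrky40, 42.3 on wrky53, 169 on the double knockout and 104 on wrky60.

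The remaining named members span several protein families. AT3G56880, a gene with the VQ motif found in partners of WRKY factors, had 698 on mock and 200.5 to 248 on the 5 Pst arrays, with 171 on wrky60. AT1G10340, an ankyrin repeat gene, had 351 on mock, 68.6 to 169.8 on the 5 Pst arrays and 118 on wrky60. AT4G01870 had 1588 on mock and 433 to 759 on the 5 Pst arrays, but 889 on wrky60, less than 2-fold below mock. AT1G19380 followed the same pattern with 1234 on mock, 244 to 600.1 on the 5 Pst arrays and 783 on wrky60, as did AT5G05190 with 192 on mock, 33.1 to 88.9 and 102. The wrky53 array held the lowest of the 5 Pst signals for each of these 5 genes. AT5G12050 had 355 on mock and 85.4 to 172 on the 5 Pst arrays, with 82.2 on wrky60. AT5G57760 had 74.3 on mock and 20.1 to 35.4 on the 5 Pst arrays, with 39.15 on wrky60. AT3G05320, the named member with the lowest mock signal, 52.9, had 18.9 to 23.5 on the 5 Pst arrays and 33.3 on wrky60, so most of its Pst signals were below the floor. AT1G51270 had 66.6 on mock and 11.3 to 30.5 on the 5 Pst arrays, and a second probe set of the gene, with 49.4 on mock and a median of 32.3 over the 5, was no member.

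The limit of the rule cut through a continuous range. Just inside it, AT1G33600 had a highest Pst signal, on the double knockout, of 0.49999 of its mock signal, and the next 2 members, which have no gene, had 0.4995 and 0.4988. Just outside lay a probe set with no gene and a mock signal of 43.99. Its signals on the 5 Pst arrays, 12.2 to 18.6, were all below 22, so the floor alone kept it out. Next came AT4G19530, an NLR gene of the TIR class with 296 on mock and a highest Pst signal of 149.0. AT1G17860, a protease inhibitor gene, followed with 832 and 419. For the last of these the highest Pst signal was 0.504 of mock.

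The wrky60 array offers a reading of the members on an array that did not choose them, although it is set against the same mock array. On it 63 of the 76 members, or 82.9%, were at least 2-fold below mock, where 947 of all 22746 probe sets, or 4.16%, were. A mock signal of at least 44 is needed for that, which every member had by the choice but only 10559 of all probe sets had. The 4.16% thus counts many probe sets that could not be 2-fold lower. The median member was 3.19-fold lower than mock, and 0 members were above mock. The 13 others ran from AT5G37540, 1.26-fold lower, to AT5G63410, 1.95-fold lower, and included AT1G51270, EXLA1, AT3G57700, AT3G05320, AT5G57760, AT5G05190, AT1G19380 and AT4G01870. Of the 36 members with a gene or gene pair 26 were at least 2-fold lower, and of the 40 with no gene 37. With signals below 22 taken as equal, the wrky60 signal lay below all 5 Pst arrays of the rule in 14 members, within their range in 43 and above them in 19. The part of the differing background and control signals of this array in these values was not tested.

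**Figure D3:**
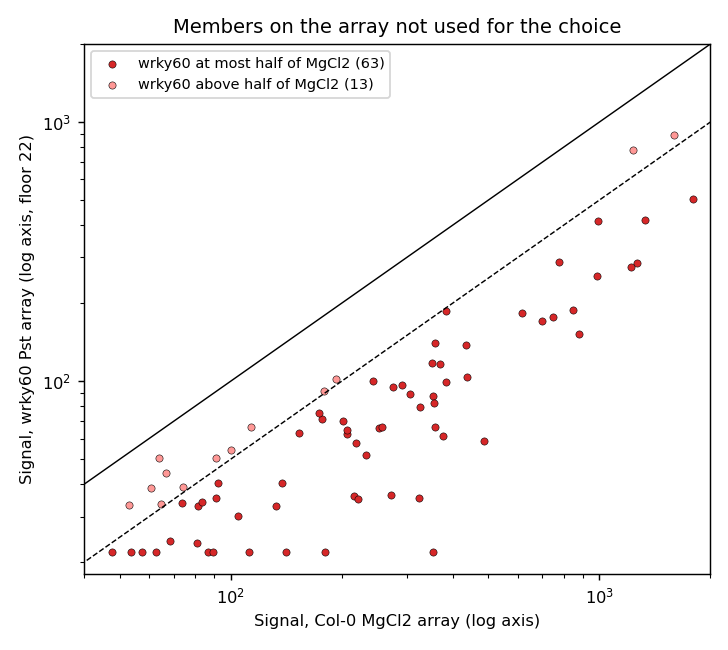
Each point is 1 of the 76 members, with its signal on the Col-0 MgCl2 array across and on the wrky60 Pst array upward, both on log axes, with wrky60 signals below 22 drawn at 22. The solid line marks equal signals and the dashed line a 2-fold lower one. All points lie below the solid line and 63 lie on or below the dashed line.

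The Pst arrays were then compared with one another to ask whether the decrease was as deep in each genotype. With signals below 22 taken as equal, the wrky53 array alone held the lowest of the 5 Pst signals for 53 of 76 members, or 69.7%, where it did so for 18.7% of the 13674 measured probe sets. In 10 more members it was at the floor together with at least 1 other array. Leaving out WRKY53 itself, it was lowest for 52 of 75. The double knockout held the highest signal for 35 members, or 46.1%, against 20.1% of measured probe sets, and Col-0 for 20 members, or 26.3%, against 12.9%. The wrky18 array was lowest for 1 member and wrky40 for 3. Among the 36 members with a gene or gene pair, 29 were lowest on wrky53, and GLR2.7, AT1G51270, AT5G37540, AT3G05320 and AT5G57760 were at the floor there and on other arrays. EXLA1 and AT5G63410 were lower on another array.

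**Figure D4:**
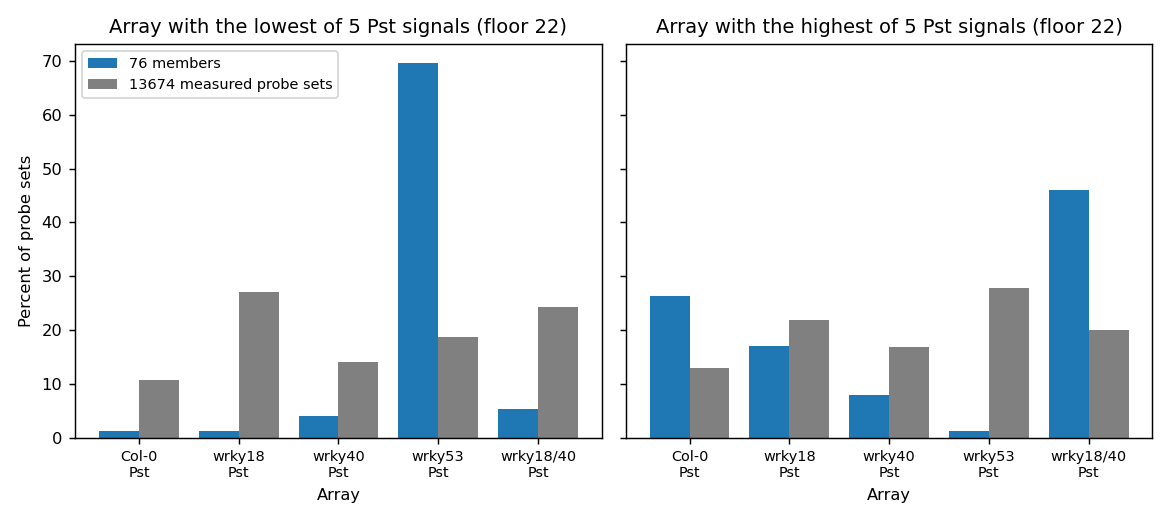
Bars give the percent of the 76 members (blue) and of the 13674 probe sets with a mean signal of at least 22 (grey) for which each array alone had the lowest (left) or highest (right) of the 5 Pst signals, with signals below 22 taken as equal. The wrky53 array was lowest for 69.7% of members and 18.7% of measured probe sets, and the double knockout highest for 46.1% and 20.1%.

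Relative to the Col-0 Pst array, the members had a median log2 ratio of -0.72 on wrky53, -0.14 on wrky40, -0.03 on wrky18, 0.01 on the double knockout and -0.13 on wrky60. Over the measured probe sets these medians were between -0.03 and 0.02. On wrky53, 26 members, or 34.2%, were at least 2-fold below Col-0 Pst, against 0.497% of all probe sets and 0.826% of measured ones, and 0 were 2-fold above, against 0.158% of all probe sets. On wrky18 and wrky40, 0 members were 2-fold lower, where 0.321% and 0.101% of all probe sets were, and 0 were 2-fold higher, where 0.114% and 0.0879% were. On the double knockout 1 member was 2-fold higher, AT1G49000, against 0.954% of all probe sets, and 1 was 2-fold lower, the probe set 248566_s_at with no gene, singled out after its values were seen, against 0.141%. On wrky60, 6 members were 2-fold lower, among them AT5G25440 and AT1G34750, and 1 was higher, AT5G37540, against 2.54% and 6.12% of all probe sets. All of these ratios share the single Col-0 Pst array. To be 2-fold above it on another array of the rule, a member must be at least 4-fold below mock on Col-0 Pst, and 4 members were. The counts of higher members on wrky18, wrky40, wrky53 and the double knockout were thus largely fixed by the choice.

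**Figure D5:**
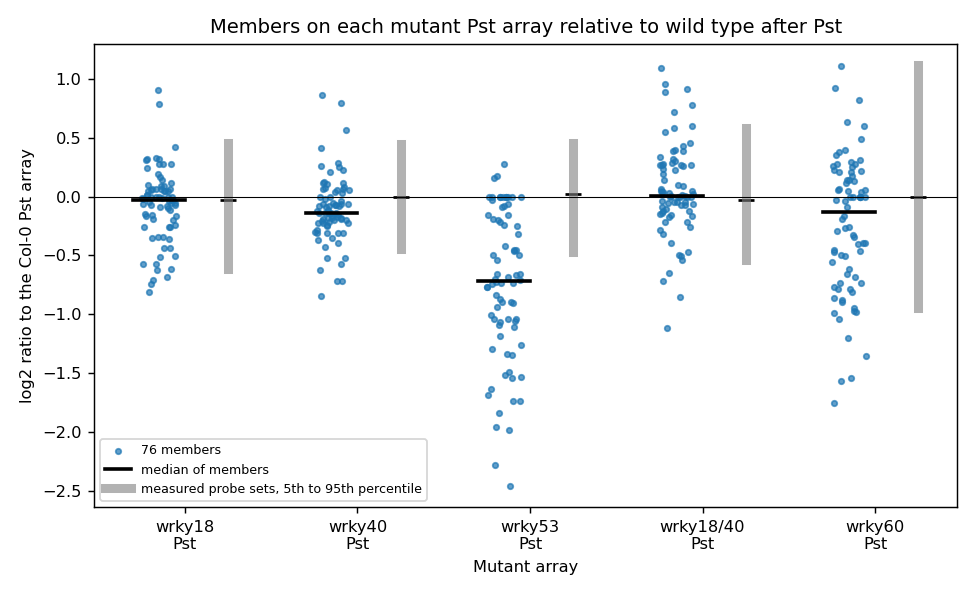
Points are the log2 ratios of the 76 members on each mutant Pst array to the Col-0 Pst array, with the median as a black line, and grey bars span the 5th to 95th percentile of measured probe sets. The members lie lower on wrky53, with a median of -0.72, than on wrky18, wrky40 and the double knockout, with medians of -0.03, -0.14 and 0.01.

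The 26 members at least 2-fold lower on wrky53 than on Col-0 Pst comprised 14 with 1 gene, 1 gene pair and 11 with no gene. AT1G72060 was 5.51-fold lower, WRKY53 at least 4.87-fold, AT1G30700 3.34-fold, AT2G17740 3.11-fold and AT5G25440 2.90-fold lower. WRKY22 was 2.54-fold, AT5G05190 2.52-fold, AT1G19380 2.46-fold, the pair AT1G30720 and AT1G30730 2.16-fold, AT1G02360 2.13-fold, AT1G51620 2.09-fold, AT1G10340 2.05-fold and AT1G65490 2.01-fold lower. AT1G51850 and ATPMEPCRB completed the 14 with log2 ratios of -1.99 and -1.84. These genes thus cut across the groups above, with a WRKY factor, kinases, oxidases, a chitinase and a pectin enzyme among them. On the other arrays the same 26 members had median log2 ratios to Col-0 Pst of -0.18 on wrky18, -0.22 on wrky40, 0.01 on the double knockout and -0.40 on wrky60.

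Each array was also read with members chosen on the other 4 alone, so that it had no part in the choice. Without wrky53 the rule gave 77 probe sets, of which 76 were at least 2-fold below mock on wrky53 as well, and wrky53 lay below all 4 other arrays for 53 of them, or 68.8%. Without the double knockout it gave 148, of which 76, or 51.4%, were at least 2-fold below mock on the double knockout, and that array lay above all 4 others for 107, or 72.3%. Their median log2 ratio to mock on the double knockout was -1.01, and to Col-0 Pst 0.36. Leaving out Col-0, wrky18 or wrky40 gave 80, 82 and 78 probe sets. The double knockout array was therefore the one that most limited the number of members, and the wrky53 array hardly limited it. The left-out array lay above all 4 others for 30% of probe sets with Col-0, 23.2% with wrky18, 10.3% with wrky40 and 2.6% with wrky53. Choosing on low signals of 4 arrays favours a higher signal on the left-out array, so these shares and the 72.3% are in part set by the choice. Over measured probe sets the double knockout was highest for 20.1%.

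The members varied more among the 5 Pst arrays than probe sets in general. The highest of the 5 signals was 1.89-fold the lowest at the median, against 1.41-fold over measured probe sets, and the median SD of log2 signal over the 5 was 0.36 against 0.20. Without wrky53 the median SD over the 4 arrays was 0.21 for members and 0.19 for measured probe sets. By the mirrored rule, at least 2-fold above mock on each of the 5 arrays, 176 probe sets were higher after Pst, and wrky53 held the highest signal for 111 of them, or 63.1%, and the lowest for 26. Over all measured probe sets wrky53 was highest for 27.8%, the largest share of the 5 arrays. The wrky53 array was thus the farthest from mock of the 5 for most probe sets on both sides, and the difference between the sides was not tested.

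Few genes of the defence pathways in the fixed gene lists could be followed, since 19 of 103 listed loci had a probe set with 1 gene. In the list for pattern-triggered immunity 6 genes were measured, and WRKY22 was the member. The ubiquitin ligase genes PUB22 and PUB24, negative regulators of this pathway, had log2 ratios to mock of -0.92 and -0.82 on Col-0 Pst, -2.64 and -1.23 on wrky53, and -0.39 and -0.19 on the double knockout. BIK1, a cytoplasmic kinase that relays receptor signals, had -0.82, -1.47 and -0.22 on those arrays, PUB23 -0.63, -1.57 and -0.22, and the receptor gene EFR -0.98, -0.99 or lower, and -0.51. BIK1 and the 3 PUB genes were each less than 2-fold below mock on the double knockout and on Col-0 Pst, while EFR, with a mock signal of 43.6, lay under the level of 44 that the rule needs. Of the 3 measured genes of the salicylic acid list WRKY53 was the member, while SAG101 had -0.80 on Col-0 Pst and GRX480 1.84 or higher. The jasmonate list held 1 measured gene, JMT, at 2.88 or higher on Col-0 Pst, the touch list STZ at 0.18, and the single clock gene with a probe set was not measured. The 3 photosynthesis genes lay between -0.38 and -0.14 and the 4 reference genes between -0.27 and 0.09, with 0 members in either list. Name-based families gave 0 members of 9 calcium-binding genes and of 29 genes with CYP symbols, which include cyclophilins. The calcium-binding name pattern did not catch the member AT3G01830, described above and given by locus code. The name patterns for receptor kinases and NLR genes matched 0 probe sets.

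The markers with a named probe set are given beside the rosette label and are too few to settle it. RCA, PRK and SBPASE, genes of leaf photosynthesis, had signals of 962 or more on every array. PYK10, the 1 root-marker gene of 3 with a probe set, had 365 on the MgCl2 array and 578 to 892 on the Pst arrays, so it was higher where the members were lower, and its part in their values was not tested. The guard cell gene FMA had 48.8 to 86.0. No flower, seed, vascular or epidermal marker of the list was measured here.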

How the data were processed

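RNA of 7 samples was measured on 1-colour Affymetrix ATH1 arrays, 1 array per group, with groups taken from source names and titles. The values deposited by the authors are linear intensities. MAS5 is named, with no version, in the submitters' processing notes. Because every array had a 2% trimmed mean of 100.01, no further scaling was applied. Few arrays and signal over background limit precision.

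Control probe sets (64 of 22810) were left out, and signals below 22 were set to 22 before log2 ratios. A probe set was called measured at a mean signal of at least 22. Counts are at 2-fold. No statistical test between arrays was run. Genes come from the platform annotation: 13513 probe sets had 1 gene, 503 several and 8730 none. Of those with 1 gene, 13436 were found by gene ID in the TAIR10.1 gene table, from which only names, chromosomes and gene order were taken.

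The members and lists were chosen with earlier results of these data known. Genes were named by a rule: the 15 largest median decreases, members of the gene lists, the 5 highest and 5 lowest ratios to Col-0 Pst on wrky60, wrky53 and the double knockout, and 3 probe sets on each side of the limit. It named 17 of the 34 single-gene members, and the other 17 and the gene pairs were added after their values were seen, so that each is accounted for. Roles of genes are general knowledge. The code for the rule was checked on simulated arrays, where it took the probe sets made lower on all 5 arrays and no others. Alternatives were floors of 11 and 44, log2 of signal plus 22, quantile normalization, median centring, cyclic loess (3 iterations, offset 1), a stricter limit (3-fold), each array left out of the choice, wrky60 required as well, and 1 probe set a gene. Promoter motifs were not analysed here. Python 3.11.15, numpy 2.4.6, pandas 2.3.3, matplotlib 3.10.9, R 4.3.3 and limma 3.58.1 were used.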

Additional observations from a re-analysis of the deposited data

How the results depend on the processing

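The number of members stayed within 1.5 times 76 with floors of 11 and 44 (89 and 60), quantile normalization (74, of which 68 were members), median centring (73), cyclic loess (68), and with any of Col-0, wrky18, wrky40 or wrky53 left out of the choice or wrky60 required as well (63). It was 39 with 22 added to each signal in place of a floor, which shrinks ratios of low signals, 148 without the double knockout, 6 at a limit of 3-fold, and 33 with 1 probe set a named gene, where probe sets with no gene drop out. The members' median log2 ratio to Col-0 Pst on wrky53 was -0.72 and -0.45 with the floor at 44, where more signals sit at the floor, and between -0.55 and -0.85 otherwise. On the double knockout it was 0.01 and 0.36 with members chosen without that array. On wrky60 it was -0.13, but -0.45 with median centring, which shifts the whole array by -0.32, and -0.39 over the 52 members above the floor on all 5 arrays, an alternative added after seeing the data. Relative to mock the wrky60 median was -1.67, -2.01 with median centring and -1.43 with 22 added. The share of the same 76 members at least 2-fold below mock on wrky60, 82.9%, was 69.7% with the floor at 44 and 72.4% with 22 added. With the floor at 44, the members with the lowest mock signals could not be 2-fold lower, so part of that fall is fixed by the setting. The share was 90.8% with quantile normalization and with cyclic loess, and 94.7% with median centring. Of 17 named genes, the median log2 ratio over the 5 arrays moved by over 1.5-fold in 5 with the floor at 44, in 1 with the floor at 11 and in 0 under the other settings. No paired analysis was possible because each group has 1 array. The promoter motif alternative was not run. Signals near the floor and single arrays limit what low members can show.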
